A study of Drosophila melanogaster with 12 samples.

Results

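Intact wing imaginal discs were compared before and after 24 hours in the abdomen of an adult fly, the NC0→NC24 comparison (NC, non-cut). It comprises 4 of the 12 arrays with 2 dyes of the series, those whose titles name non-cut wing discs. The discs came from larvae of the 3rd instar, of the w1118ISO; 2iso; 3iso isogenic line of the DrosDel collection, which the sample labels spell w118iso; 2iso; 3iso. The earlier RNA was taken from discs that were never implanted, and the later RNA from discs implanted into recently eclosed Canton S females kept at 25°C. There were 2 RNA preparations at each time, called replicate 1 and replicate 2, and each was hybridized with the later RNA in Cy3 (swap A) and in Cy5 (swap B). In the cut discs used for comparison, C0→C24, a posterior sector had been removed before implantation, and they also have 2 replicates with 4 arrays. No array held discs aged for 24 hours without implantation, so that the handling, the adult host and the time that passed cannot be told apart. How many discs went into an RNA preparation was not given in the sources used here.

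The wing disc is an epithelial sac set aside in the larva, which forms the wing, its hinge and the notum of the adult during metamorphosis. Pulses of the steroid hormone ecdysone drive larval growth to its end and start the making of pupal and adult cuticle, a layer of chitin fibres and cuticle proteins secreted by the epithelium. Discs placed in an adult abdomen survive there and are bathed in the host's haemolymph, and this culture is classically used to let cut discs regenerate.

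Each array value is a log2 ratio of RNA at 24 hours over RNA at 0 hours, with no absolute level, so that a gene's abundance is not known. The table does not state the direction of the ratios. Swap A and swap B of the same RNA correlated positively across genes (r = 0.80 in replicate 1 and 0.69 in replicate 2, a description, since genes are not independent), so the values had already been turned to a single direction. Later over earlier is the likely direction, since cbt and Gadd45, which the study describes as raised after the cut, have positive values in cut discs. The SD over 12058 genes lay between 0.38 and 0.44 on the 4 arrays, and the array medians lay between -0.02 and 0.02. Across genes the replicate means correlated with r = 0.85, and the SD of the difference between replicates was 0.22. The means of the 2 dye orders correlated with r = 0.79, and the SD of their difference was larger, 0.25. Arrays of different replicates with the same dye order correlated with r = 0.83 for swap A and 0.78 for swap B. Intact and cut discs share no RNA. The discs were sampled whole, and fewer cells of a type and less RNA per cell cannot be told apart.

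A gene was said to have risen or fallen where limma gave a Benjamini-Hochberg adjusted p under 0.05 over all genes and the change was at least 1.5-fold, or 0.58 on the log2 scale. Of 12058 genes tested, 620 rose (5.14%) and 464 fell (3.85%), which is 8.99% in either direction. Each count of list members given below is to be read beside these shares. The rises reached further than the falls. At 2-fold or more, 231 genes rose and 77 fell, and at 4-fold or more 32 rose and 5 fell. Of the 1084 genes called, 1080 had the same sign on all 4 arrays, as did 43.1% of all genes. Replicate 1 gave the larger rise for 199 of the 231 genes that rose 2-fold, and the larger fall for 51 of the 77 that fell 2-fold.

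**Figure D1:**
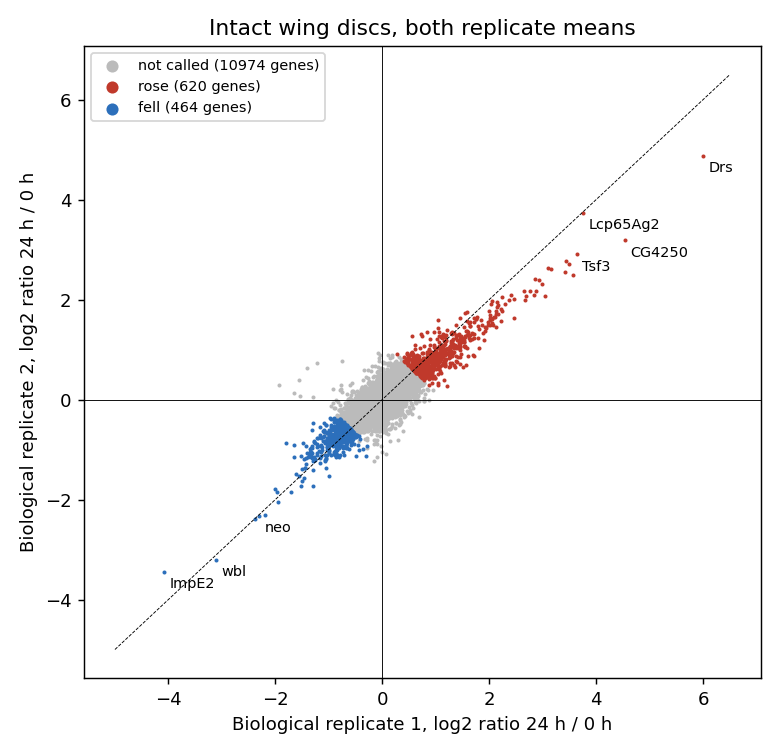
Mean log2 ratio (24 h over 0 h) of each gene in replicate 1 (x axis) and replicate 2 (y axis), 1 point per gene, red where the gene rose, blue where it fell and grey where it was not called; the dashed line marks equal values. The 620 genes that rose reach 5.43 with Drs and the 464 that fell reach -3.77 with ImpE2, and most strong rises lie below the line.

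The largest rise belonged to Drs, which encodes the antifungal peptide drosomycin. Its log2 ratios were 5.45, 6.54, 5.05 and 4.69 on replicate 1 swap A, replicate 1 swap B, replicate 2 swap A and replicate 2 swap B, the order used for 4 values throughout. All 4 arrays of Drs were high, those of replicate 1 above those of replicate 2. The mean of 2 replicates was 5.43 ± 0.46, with an adjusted p of 0.000114 in limma. Each ± given here is limma's moderated SE, which rests on the spread shared by all groups fitted and not on these replicates alone. CG4250, which is named only by its annotation number, gave 4.60, 4.48, 3.21 and 3.16. Here the replicates were apart by more than the dye orders. Lcp65Ag2, a larval cuticle protein gene, gave 2.73, 4.78, 3.62 and 3.84, a spread that lay mainly between the dye orders of replicate 1. Its probe may also bind RNA of the neighbouring copies Lcp65Ag1 and Lcp65Ag3, so that the member of the cluster is uncertain. Tsf3, of the transferrin family of iron-binding proteins, gave 3.63, 3.64, 3.16 and 2.65 (mean 3.27 ± 0.24, adjusted p = 7.97e-05). Arc1, a Gag-like protein derived from a retrotransposon, which forms capsids that carry RNA, gave 3.12, 4.00, 2.39 and 2.58. Its relative Arc2 rose with a mean of 1.1. Among the other large rises were Cpr72Eb (3.10), Edg84A (2.88), Cpr51A (2.66), Edg78E (2.47) and Cpr100A (2.38), which encode cuticle proteins, and slf (2.48), needed for the layering of the cuticle. Obp83g (2.87) belongs to the odorant-binding proteins, Nplp2 (2.56) encodes a precursor of neuropeptide-like peptides, and tx (2.34) a bHLH transcription factor.

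ImpE2 fell furthest. It was found in discs as a gene that ecdysone induces, and its log2 ratios were -4.20, -3.97, -4.09 and -2.80. All 4 arrays were low, with replicate 2 swap B nearer to 0 than the others, and the mean was -3.77 ± 0.16 (adjusted p = 1.35e-05). The next was wbl, which encodes an endoplasmic reticulum (ER) protein related to protein disulfide isomerases, at -3.29, -2.93, -3.78 and -2.64. Its mean of -3.16 ± 0.11 had the smallest adjusted p of the genes named here, 8.17e-06. Fkbp14, a prolyl isomerase of the ER, gave -2.33, -2.42, -2.60 and -2.18, and neo, a zona pellucida domain protein of the apical extracellular matrix, -2.28, -2.32, -2.48 and -2.16. Both varied little between arrays. Other large falls were those of the small heat shock proteins Hsp26 (-1.90) and Hsp27 (-1.55), the serpin Spn43Aa (-1.62), the peptidase Ance (-1.52), the amino acid transporter mnd (-1.44), the primase subunit Prim1 (-1.40) and the tubulin alphaTub84D (-1.32). The value of the histone gene His3:CG31613 rested largely on 1 array, with -0.63, -2.96, -1.09 and -0.63, and its many near-identical copies cannot be told apart by a probe.

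**Figure D2:**
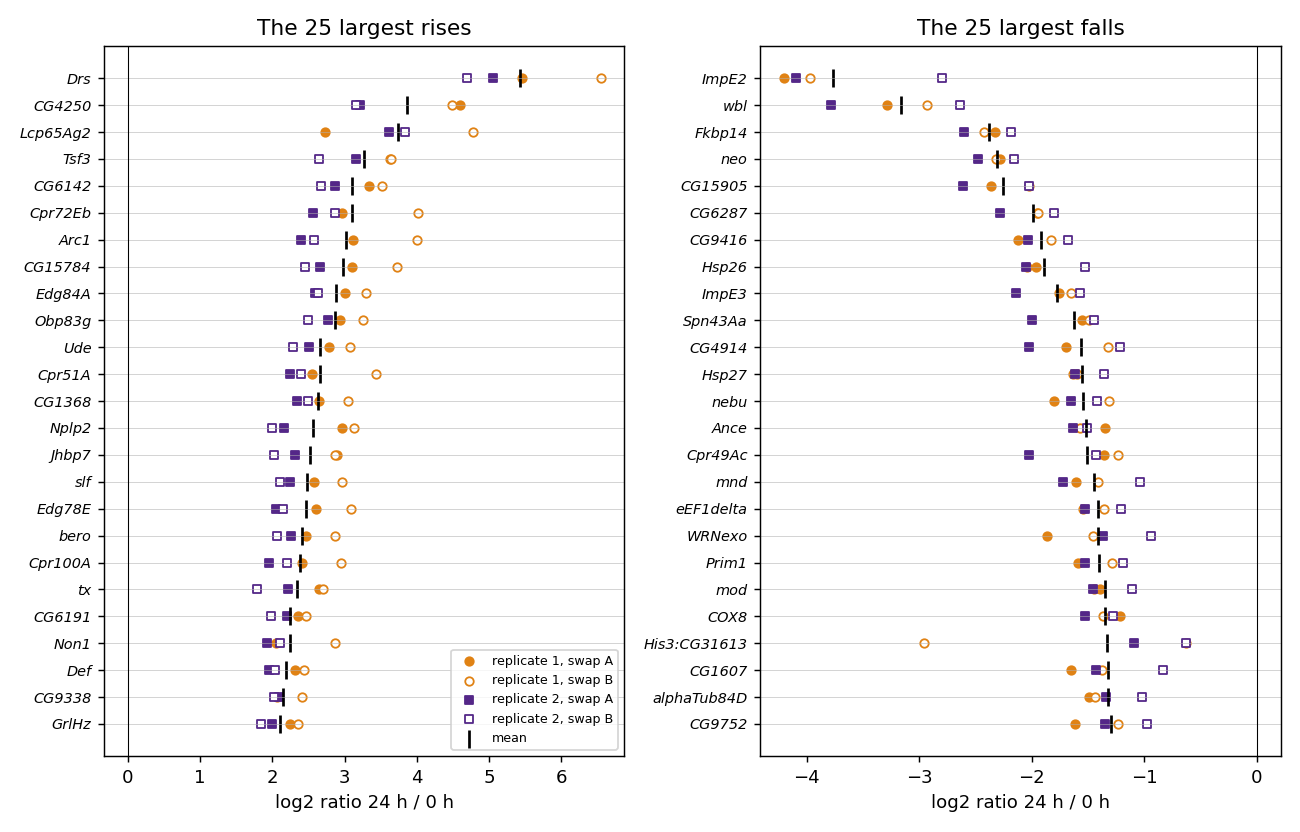
Log2 ratio (24 h over 0 h) on each of the 4 arrays for the 25 largest rises (left) and the 25 largest falls (right) among genes with 1 sign on all 4 arrays; circles stand for replicate 1, squares for replicate 2, filled marks for swap A, open marks for swap B and the bar for the mean. For Drs the arrays span 4.69 to 6.54, and for ImpE2 they span -4.20 to -2.80.

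Cuticle protein genes divided into a few that rose strongly and many near 0. Of 112 measured, 20 rose and 2 fell, and their median was 0.02, against -0.0025 over all genes. The 3 Edg genes, named for their dependence on ecdysone and known from the prepupal cuticle, all rose. Edg84A gave 3.01, 3.30, 2.59 and 2.63, Edg78E 2.60, 3.09, 2.05 and 2.15, and Edg91 2.06, 2.01, 1.94 and 1.90. All 12 values were at least 1.90. Cpr57A (1.90), Cpr66D (1.88) and Cpr50Cb (1.29) rose as well. Cpr49Ac went the other way, with -1.36, -1.23, -2.02 and -1.43.

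Of 27 chitin genes, 11 rose and 1 fell, with a median of 0.44. Their roles covered the making, shaping and breakdown of chitin. The 4 chitin-binding proteins of the obstructor family in this list all rose, a group set apart after its values were seen. Among them obst-B gave 1.97, 2.35, 2.01 and 1.79 (mean 2.03 ± 0.13, adjusted p = 4.97e-05), obst-A had a mean of 1.44 and Gasp one of 1.30. Another measured member of the family, obst-J, is outside the list, averaged -0.505 and was not called. For mmy, which makes the sugar nucleotide from which chitin is built, the values were 1.49, 1.67, 1.68 and 1.47. The chitinases Cht6 (1.75), Cht5 (1.31) and Cht2 (1.23) and the chitin deacetylase Cda4 (1.15) rose too. Of 13 genes for tanning and pigment, 3 rose and none fell by this rule. These were speck (1.68 ± 0.09), an acetyltransferase that acts on dopamine, amd (1.24) and ple (0.91 ± 0.26), the tyrosine hydroxylase. The call of ple was lost without replicate 1 and without replicate 2, with adjusted p of 0.33 and 0.14. Osi2, of the Osiris family of transmembrane proteins, rose by 1.43. In all 2 of 24 Osiris genes rose (8.33%, beside 5.14% of all genes). The call of the other, Osi3 (0.755), was lost without replicate 1 and without replicate 2.

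Among 12 genes of the ecdysone response, 3 rose and 1 fell. The nuclear receptor ftz-f1, which marks the prepupal response, gave 0.84, 0.82, 0.95 and 0.94, so that all 4 arrays lay close together (mean 0.89 ± 0.10, adjusted p = 0.00036). For EcR, the ecdysone receptor, the values were 0.74, 1.09, 0.25 and 1.09, higher in swap B in both replicates, and its mean of 0.79 ± 0.10 dropped to 0.49 and was not called on the swap A arrays alone. Eip93F, a transcription factor of late metamorphosis, gave 0.84, 1.51, 0.49 and 0.84. Cth fell by 0.60. Blimp-1, a repressor induced by ecdysone, had -0.48, -0.42, -0.51 and -0.72, below 0 on every array but short of 1.5-fold, and br, a selector of the pupal state, averaged -0.29 with an adjusted p of 0.057.

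Of the 5 genes first isolated as ecdysone-inducible in discs, 3 fell. Beside ImpE2, ImpE3 gave -1.76, -1.65, -2.14 and -1.57, and ImpL2, whose secreted product binds insulin-like peptides, -0.95, -1.03, -1.68 and -1.36. The fall of ImpL2 was larger in replicate 2 and was not called without it (adjusted p = 0.067). ImpL1 had the opposite sign, with 0.58, 0.59, 0.48 and 0.38, and ImpE1 averaged -0.28. Among 20 genes tied to juvenile hormone, 3 rose, of which Jhbp7 (2.52) and Jheh2 (1.59), a juvenile hormone epoxide hydrolase, moved most.

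Of 20 genes for antimicrobial peptides 11 rose and none fell, their median was 0.68 and the medians of single arrays lay between 0.58 and 0.66. Def, the defensin, gave 2.32, 2.44, 1.95 and 2.04, and Mtk, metchnikowin, 2.44, 1.80, 1.49 and 1.41. All were above 1, and for both genes replicate 1 lay above replicate 2. The bomanins, short secreted peptides induced through Toll, were represented by 8 genes, of which 4 rose, BomS6 (1.88 ± 0.24), BomT2 (1.41), BomBc2 (1.19) and BomS2 (0.66). DptB, a diptericin, rose by 1.44 and AttD, an attacin, by 0.83. AttB gave 1.74, -0.05, 1.45 and 1.26, so that 1 array lay at 0. Of 7 genes of the drosomycin family, Drs and Drsl6 (0.69) rose, while the other 5 lay between -0.31 and 0.15. Without replicate 1 or without replicate 2, 8 of the 20 rose, and Drsl6, BomBc2 and BomS2 were not called in either case.

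Of 21 genes of the Toll and Imd pathways, which act upstream of these peptides, 3 rose and none fell. Rel, the NF-kB factor of the Imd pathway, gave 1.49, 1.43, 1.08 and 0.89, Diap2, a ubiquitin ligase needed for Imd signalling, 1.66, 1.78, 1.68 and 1.41, and pll, the Toll pathway kinase, averaged 0.65. The receptor Tl itself averaged 0.39, positive on all 4 arrays and short of the threshold. Of 9 recognition proteins for bacterial and fungal cell walls none was called, although 5 of them had an adjusted p under 0.05 in limma with a rise of less than 1.5-fold, PGRP-LF the furthest at 0.50.

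Of 13 genes for iron storage and transport, 5 rose and none fell. The ferritin subunits Fer2LCH (1.0, 1.30, 1.11 and 1.24) and Fer1HCH (0.71, 0.76, 0.76 and 0.65) stayed within narrow bands. Tsf1, the main haemolymph transferrin, averaged 1.11, but its 2 probes differed, with means of -0.03 and 2.26. Zip99C gave 1.33, 1.38, 1.35 and -0.04, with 1 array apart from the rest. Of 36 glutathione S-transferases, which conjugate toxic compounds, 8 rose and 2 fell. GstE6 (2.54, 2.40, 1.85 and 1.41), GstD2 (1.76, 1.6, 1.47 and 1.20) and GstO1 (mean 1.31) rose most, and GstE14 (-1.16), a member that serves ecdysone synthesis, fell. Of 85 cytochrome P450 genes 2 rose (2.35%) and none fell. Of the 6 imaginal disc growth factors, secreted relatives of chitinases, Idgf6 (1.32), Idgf2 (1.25) and Idgf1 (0.91) rose, and the other 3 lay between 0.07 and 0.16.

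Of the 464 genes that fell 308 were in none of the lists used here, and of the 620 that rose 504 were in none. Of 57 genes of the respiratory chain and ATP synthase 25 fell and none rose, and 53 of the 57 were below 0. Their median was -0.55, and 48 had the same sign on all 4 arrays. COX8, of cytochrome c oxidase, gave -1.22, -1.37, -1.53 and -1.28 (mean -1.35 ± 0.10, adjusted p = 8.95e-05). The complexes were also set apart by name. Of 12 ATP synthase subunits 11 fell, among them ATPsyndelta (-0.96), ATPsynF (-0.94) and ATPsynC (-0.90), and of 10 subunits of complex IV 8 fell. Of 26 subunits of complex I only 4 fell, ND-MLRQ and ND-B22 (both -0.80) the furthest, with a median of -0.34, and of 3 of complex II none was called. These subgroups were set after the values were seen and were not tested against each other. Among 70 mitochondrial ribosomal proteins, 11 fell and 1 rose, with a median of -0.27.

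Of 40 proteasome genes 15 fell and none rose, with a median of -0.45. Rpn12, of the regulatory lid, gave -1.01, -1.11, -1.24 and -1.14, and Prosalpha1, of the core ring, averaged -0.96. Both stayed low on every array. The 40 include 14 paralogs whose names end in T or R and which are known from the testis. None of these 14 was called, with a median of 0.01 and a range from -0.23 to 0.17. Of the remaining 26 genes 15 fell, their median was -0.66, and the highest of them was at -0.26. This division was made after the values were seen. The chaperonin TRiC, which folds actin and tubulin, had all 8 subunits below 0 and 5 that fell, with CCT5 at -0.80. Without replicate 1, 2 of the 8 fell.

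Of 37 genes of DNA replication 13 fell and none rose, with a median of -0.52 and 33 members below 0. Prim1 gave -1.59, -1.29, -1.53 and -1.19 (mean -1.40 ± 0.09), PolE2, of DNA polymerase epsilon, -1.57, -1.14, -1.23 and -0.73, and PCNA, the sliding clamp, -1.20, -1.30, -0.90 and -0.84. All 12 values were below -0.70. Of 5 measured subunits of the MCM replicative helicase 3 fell, and all 5 lay between -0.87 and -0.53. Of 30 cyclin and mitosis genes 1 rose and 1 fell, fzy at -0.78, each 3.33%, beside 5.14% and 3.85% of all genes. Their median was -0.07, with -0.16 in replicate 1 and 0.04 in replicate 2. Leaving out replicate 1 gave 9 replication genes that fell, and leaving out replicate 2 gave 19.

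In the nucleolus, where ribosomal RNA is made and processed, 16 of 43 genes fell and 1 rose, with a median of -0.42. The nucleolar protein mod had values of -1.39, -1.45, -1.46 and -1.11. Nop56 (-1.26), NHP2 (-1.24) and Fib (-0.91), all of the particles that modify ribosomal RNA, fell with it. The exception was Non1, a GTPase that helps to mature the large ribosomal subunit, with 2.05, 2.87, 1.92 and 2.11, higher than every other gene of the list on all 4 arrays. Of 40 cytosolic ribosomal proteins 2 rose and 2 fell, each 5.0%, beside 5.14% and 3.85% of all genes. Their median was 0.10, with 0.26 in replicate 1 and -0.10 in replicate 2, and their mean of -0.0027 had the opposite sign. RpLP0-like (-1.20) and RpL24-like (1.02), the members with the largest changes, are relatives of ribosomal proteins with roles in ribosome assembly. Of 42 splicing genes 11 fell and 1 rose.

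Of 44 translation factors 7 rose and 3 fell, and all 7 that rose are subunits of eIF3, the complex that brings the small ribosomal subunit to the messenger RNA. The 16 measured eIF3 genes, set apart after their values were seen, had a median of 0.39, and none fell. Among them eIF3l gave 1.48, 1.58, 1.29 and 1.1 (mean 1.36 ± 0.11, adjusted p = 0.000111) and eIF3m 1.33, 1.25, 1.07 and 0.77. The 3 factors that fell were eEF1delta (-1.41), eIF1 (-0.76) and eIF4EHP (-0.66). Among the other 28 factors none rose.

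Of 23 genes for protein folding in the ER 11 fell and 1 rose, with a median of -0.38. Beside wbl and Fkbp14 these were chaperones and disulfide isomerases such as prtp (-1.02), Manf (-1.0) and Hsc70-3 (-0.92, -0.80, -1.26 and -0.92), the BiP of the fly. The gene that rose was crc (0.57, 0.85, 0.60 and 0.72), the ATF4 of the fly, which is a transcription factor of the stress response and not a chaperone. Without replicate 1, 6 genes of this group fell and 5 rose. Of 30 genes for entry into the secretory pathway and transport 8 fell and none rose, including the channel subunits Sec61gamma (-0.87) and Sec61alpha (-0.74).

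Of 23 cytosolic heat shock and chaperone genes 5 fell and none rose, with a median of -0.24. Hsp26 gave -1.96, -2.04, -2.05 and -1.53 and Hsp27 -1.63, -1.6, -1.62 and -1.36, low on all arrays. For the co-chaperone DnaJ-1 the values were -1.58, -1.72, -1.01 and -0.79, lower in replicate 1. The stress-inducible Hsp70Bc, the mean of 17 probes that may bind RNA of several near-identical Hsp70 genes, gave -1.28, -1.15, 0.67 and 0.80. It was below 0 in replicate 1 and above 0 in replicate 2, and so was Hsp68 on most arrays (-1.0, -0.86, 0.44 and 0.00). Neither was called.

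**Figure D3:**
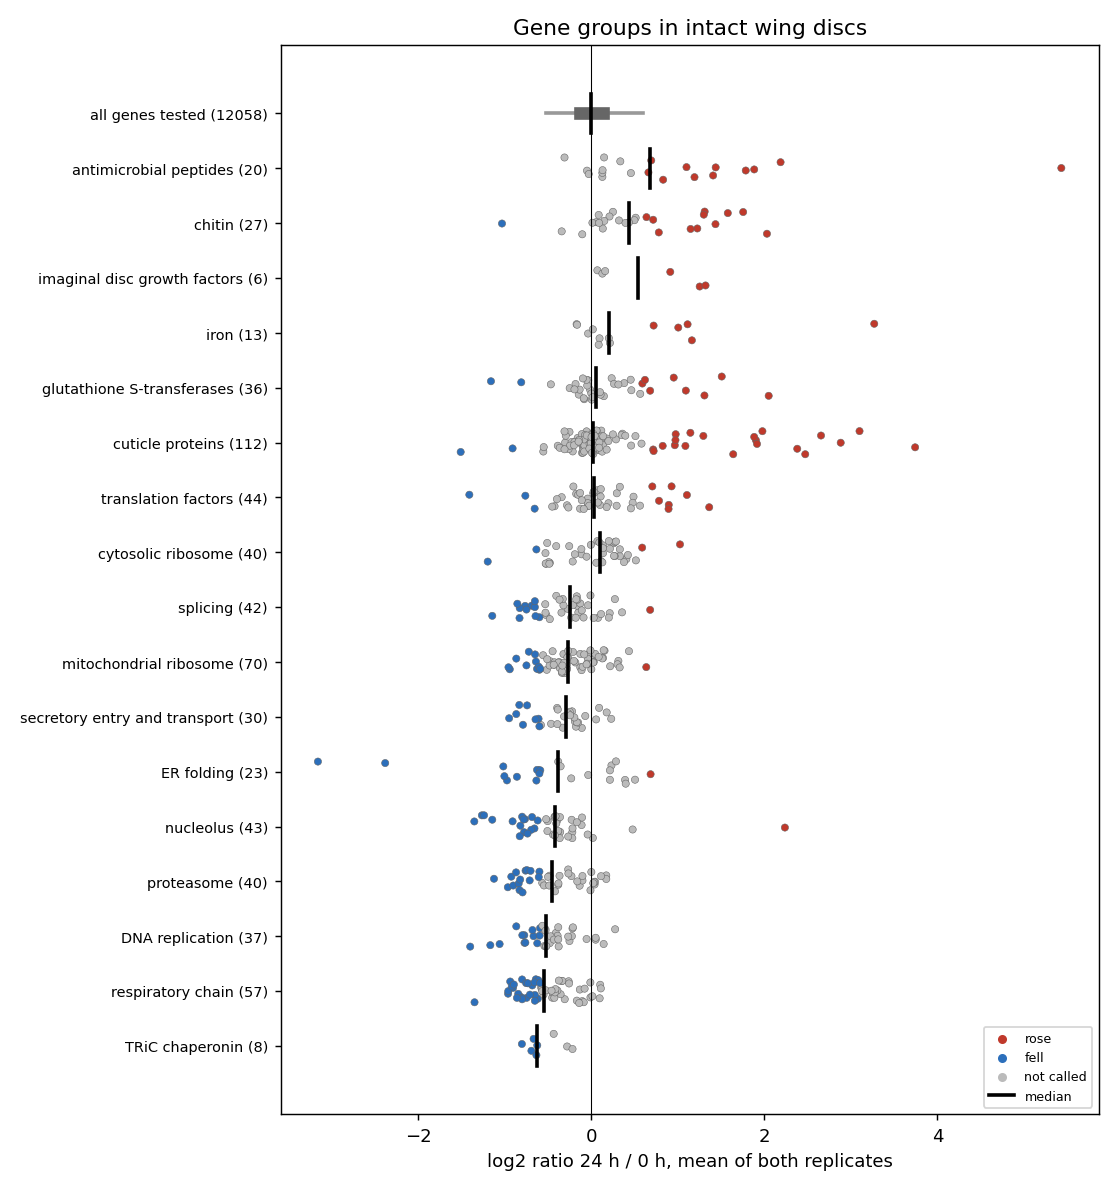
Mean log2 ratio (24 h over 0 h) of each member of 17 gene groups, 1 point per gene, red where it rose, blue where it fell and grey where it was not called, with a black bar at the median; for all genes the thick bar spans the 25th to the 75th percentile and the thin bar the 5th to the 95th, and the number of genes stands in brackets. Group medians run from 0.68 for antimicrobial peptides to -0.63 for the TRiC chaperonin, and Drs stands apart at 5.43.

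The label of the tissue was compared with genes that pattern the wing disc, although a ratio says only whether a gene rose or fell and not whether it was expressed. None of 12 measured wing pouch genes, 13 genes of the anterior-posterior and Hedgehog system or 14 genes of hinge and notum was called. Over all genes 8.99% were called, a share at which lists of this length hold few calls or none. In these lists, in the same order, 2, 3 and 1 genes had an adjusted p under 0.05 in limma with a fall of less than 1.5-fold. The pouch selector nub gave -0.79, -0.41, -0.72 and -0.13, negative on all arrays and short of 1.5-fold. The pouch gene vg averaged -0.21, rn -0.24, ap -0.14 and salm 0.08. The pouch median was -0.17, -0.26 in replicate 1 and -0.06 in replicate 2. Of 14 bristle and Enhancer of split genes 1 rose, hry (0.72), which is 7.14% beside 5.14% of all genes. For sd and wg no probe with a single gene name was analysed here.

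RNA of other tissues could come with an implant, and the ratios of their markers were read beside the groups above. Of 19 hemocyte genes 3 rose and none fell, with a median of 0.08 and array medians between 0.02 and 0.16. These were NimC4 (1.65, 1.95, 1.26 and 1.67) and crq (1.01, 1.13, 1.22 and 1.08), receptors for the uptake of dying cells, and Hml (0.63, 0.51, 0.54 and 0.87), a clotting protein of hemocytes. The call of Hml was lost without replicate 2 (0.57) and on the swap B arrays alone (0.69, adjusted p = 0.13 in limma). Of the 6 markers taken to define these cells, Hml and crq were thus among the genes that rose, NimC1 averaged 0.33 (adjusted p = 0.0143, short of 1.5-fold), eater 0.14 and Pxn 0.08, and He gave -0.59, -0.52, -0.73 and -0.29. Of 9 fat body genes 1 rose, fat-spondin (0.97 ± 0.09), and their array medians lay between -0.23 and 0.13. The larval storage protein gene Lsp2 disagreed between replicates, with -1.29, -1.54, 0.62 and 0.65, and so did the lipoprotein gene apolpp, with -0.10, 0.00, 1.01 and 0.79. Among 16 genes of the adult female for yolk and egg shell none rose and Cp16 (-0.85) fell, and the yolk proteins Yp1, Yp2 and Yp3 averaged 0.22, 0.50 and 0.19. The part of blood, fat body or host RNA in the rise of peptides, iron proteins and cuticle genes was not tested.

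Of the other tissues, none of 27 midgut, 14 neuron or 9 trachea genes was called, beside 8.99% of all genes. Of 21 muscle genes 2 rose and 2 fell (9.52% each, beside 5.14% and 3.85% of all genes), Mlc2 (1.22) and Msp300 (0.69) against Act79B (-0.84) and Mp20 (-0.68). The call of Msp300 was lost without replicate 1 (0.335) and with the median of its probes (0.54), and that of Mp20 without replicate 1 (-0.375). Of 8 clock genes none was called, and vri was at -0.57.

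**Figure D4:**
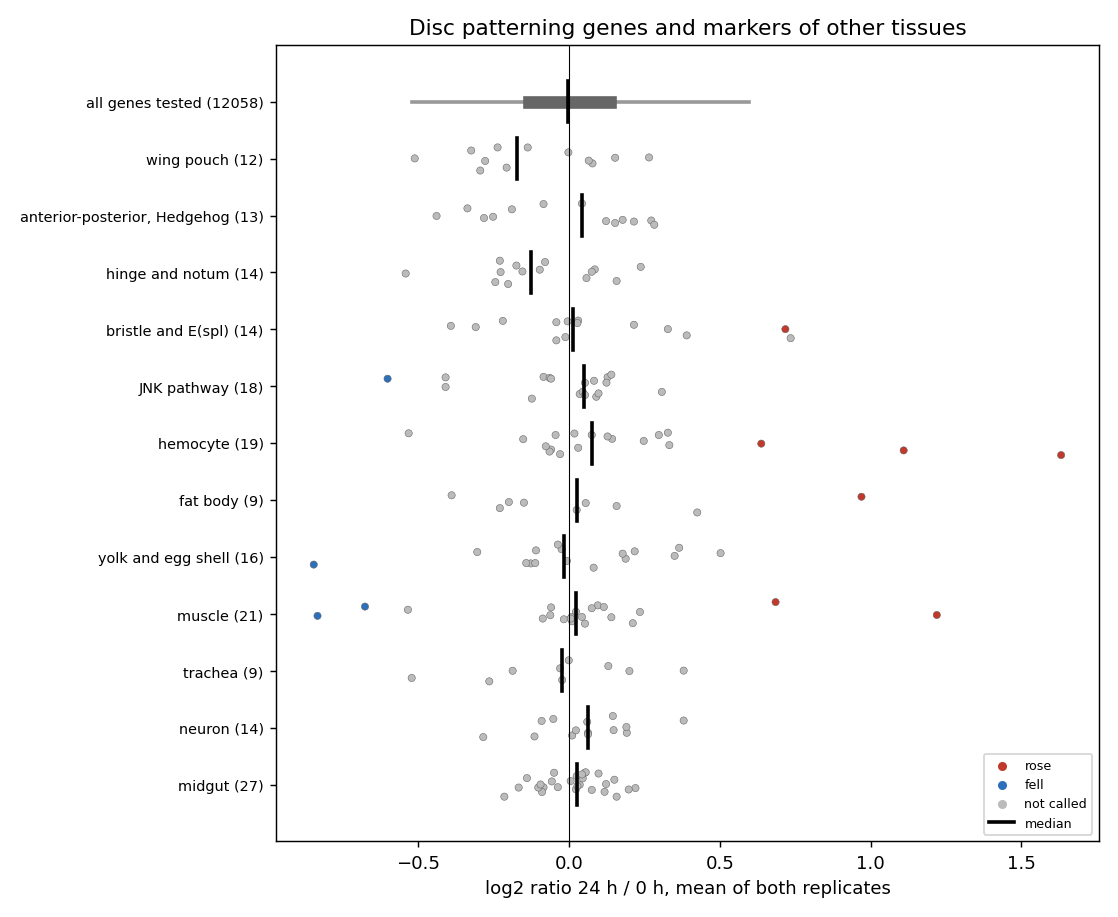
Mean log2 ratio (24 h over 0 h) of disc patterning genes, JNK pathway genes and markers of other tissues, 1 point per gene, red where it rose, blue where it fell and grey where it was not called, with a black bar at the median; for all genes the thick bar spans the 25th to the 75th percentile and the thin bar the 5th to the 95th, and the number of genes stands in brackets. Medians lie between -0.17 and 0.08, and NimC4 at 1.63 is the highest point.

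Of 19 genes known from wounded epithelia 7 rose and none fell in these discs, which had not been cut, with a median of 0.31. The transcription factor gene cbt gave 1.35, 1.43, 1.29 and 1.29, Gadd45, a stress response gene, 1.44, 1.59, 0.87 and 0.43, and Col4a1, a collagen IV chain, 1.14, 1.17, 0.88 and 0.97. All were above 0 on every array. The study compares these genes in cut discs, so that the list is not independent of these samples. Other parts of the basement membrane rose as well, SPARC by 1.03 and LanA by 0.69, which makes 3 of 14. The integrin beta chain mys rose by 0.75. Of 18 JNK pathway genes none rose, beside 5.14% of all genes. Among them bsk, the JNK of the fly, fell by 0.60. The call of bsk was lost without replicate 1 (-0.505), and in cut discs it averaged -0.48 and was not called. For puc, the phosphatase and target of JNK, the mean was 0.31 ± 0.14 with an adjusted p of 0.17, and kay, the Fos of the fly, was at -0.12. Of 17 cell death genes 5 rose and 1 fell, among them Debcl (1.25, 0.84, 1.56 and 1.31), a Bcl-2 family member, and drpr (0.61), a receptor for corpse uptake. Of the actin regulators 4 of 21 fell and 1 rose, with cpb (-0.84), tsr (-0.76), sn (-0.74) and cpa (-0.64) the ones that fell.

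Neighbouring genes were called together more often than the background share. Gene order was read from a RefSeq table of Release 6, which placed 11578 of the genes on a chromosome arm. Among the 1217 neighbour positions of genes that rose, 122 (10.02%) held another gene that rose, beside 5.14% over all genes. For genes that fell it was 72 of 919 (7.83%), beside 3.85%. These shares are a description and include families whose similar members may share probe signal. There were 8 runs of at least 3 neighbours that rose and 2 runs that fell, and their members were named after their values were seen. The runs included 3 bomanins (BomBc2, BomS2 and BomT2), the glutathione S-transferases GstE5 (0.62), GstE6 (2.05) and GstE7 (0.68), the ferritin pair with heca (1.56), and the cuticle genes Lcp65Ag2 (3.74), Lcp65Ag1 (1.64) and Lcp65Af (1.15). The longest run held 4 genes, Drsl6 (0.69), kst (0.61), Drs (5.43) and Ythdc1 (1.07).

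Most genes called in intact discs were also called in cut discs over the same 24 hours. Over all 12058 genes 738 rose and 596 fell in cut discs by the same rule, more than the 620 and 464 in intact discs. Of the 1084 genes called in intact discs, 918 had the same call in cut discs. Of the other 166, 97 rose and 69 fell in intact discs, and 164 had the same sign in cut discs. The test of the difference, C0→C24 minus NC0→NC24, gave 9 genes of 12058 (0.0746%) at an adjusted p under 0.05 and 1.5-fold, 7 higher and 2 lower in cut discs, and 716 genes at an unadjusted p under 0.05. Drs, for example, had a mean of 5.43 in intact and 4.88 in cut discs, and ImpE2 -3.77 and -4.47.

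The blood cell genes eater and He had lower values in intact than in cut discs. For eater the intact values were 0.16, 0.29, 0.12 and 0.00, and the cut replicates 1.50 and 1.36, a difference of 1.29 ± 0.13 (adjusted p = 0.0268). He had a mean of -0.53 in intact and 0.48 in cut discs, a difference of 1.01 ± 0.13 (adjusted p = 0.0404). Over the 19 hemocyte genes the median difference was 0.22, and no other member's difference was called. Among the other 4 defining markers the difference was 0.80 for Hml, 0.54 for NimC1, 0.44 for crq and 0.09 for Pxn. fat-spondin rose in both, by 0.97 and 1.96, with a difference of 0.99 ± 0.12. The cuticle gene Cpr97Eb averaged 0.09 in intact discs, from -0.69 to 0.59 on single arrays, and 1.22 in cut discs. CG14629, CG4259 and CG18641 had differences of 1.12, 1.25 and 0.90.

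Lower in cut discs were CG9416 and a histone gene. CG9416 fell in intact discs, with -2.12, -1.83, -2.03 and -1.68, and fell further in cut discs, to -3.54 and -3.12, a difference of -1.41 ± 0.15. His1:CG31617 gave 1.43, 1.40, 0.93 and 1.20 in intact discs and -0.57 and -0.65 in cut discs. It is the only gene of these 9 with opposite calls in the 2 comparisons (difference -1.85 ± 0.17, adjusted p = 0.0235), and the copies of this histone gene cannot be told apart. The count of 9 depended on each replicate, since without replicate 1 of intact discs 0 genes were called by limma (587 at an unadjusted p under 0.05) and without replicate 2 of intact discs 3 genes were.

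For the groups that fell, the counts in intact and cut discs stood as follows, beside 464 and 596 of all 12058 genes. The respiratory chain had 25 and 27 genes that fell, the proteasome 15 and 21, the nucleolus 16 and 20, ER folding 11 and 12, and DNA replication 13 and 7. For replication the medians were -0.52 and -0.41, and the median difference between cut and intact was 0.07, with no member's difference called. GstD2 rose by 1.51 in intact discs and averaged 0.36 in cut discs, and the difference of -1.14 was not called (adjusted p = 0.10). The wound genes had 7 and 8 that rose and the antimicrobial peptides 11 and 11, beside 620 and 738 of all genes.

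**Figure D5:**
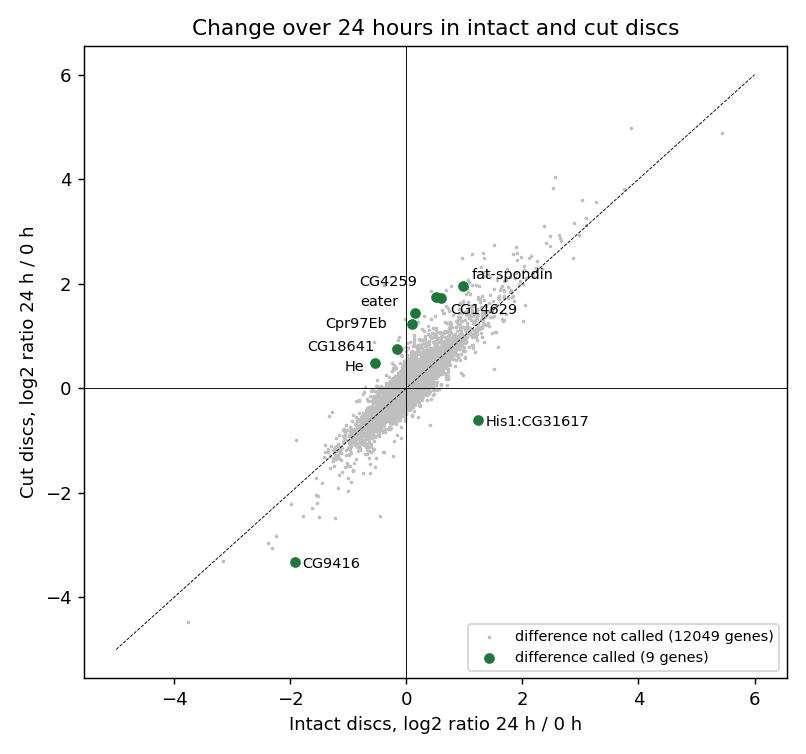
Mean log2 ratio (24 h over 0 h) of each gene in intact discs (x axis) and cut discs (y axis), each a mean of 2 replicates, grey where the difference was not called and green with names for the 9 genes where it was; the dashed line marks equal change. Most genes lie near the line, and His1:CG31617 lies at 1.24 in intact and -0.61 in cut discs.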

How the data were processed

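The authors scanned the arrays (Operon Drosophila oligonucleotide set) with GenePix Pro, normalized the 4 arrays of a comparison together by OLIN (mad option) and tested with limma, the tool the submitters' processing notes name without a version. The deposited table gives log2 ratios and no intensities, so that background, dim spots, normalization within arrays and slide could not be varied, and the number of arrays limits precision. Of 16416 probes, 13164 carried 1 gene symbol, 101 several and 3151 none. Symbols were updated by gene identifier (12533 probes) or accession (120) and kept for 511, which gave 12058 genes, 757 of them the mean of several probes. No value was missing. Dye-swapped arrays of a replicate, which held the same amplified RNA, were averaged, and 6 replicate means in 3 groups were fitted in limma 3.58.1 under R 4.3.3, where the 3 groups share 1 estimate of the spread, with 3 residual degrees of freedom before moderation. P-values measure the spread between 2 RNA preparations within each of the 3 groups, moderated across genes, and this spread may be technical. The paper names a common reference RNA from implanted cut discs for both cut comparisons. These 2 groups may thus not be independent, as the fit assumes. The SD of the difference between replicates was 0.22 in intact discs, 0.21 in the earlier cut comparison and 0.29 in the later. P-values for intact discs therefore rest partly on a group with a wider spread. With the comparison fitted alone, 616 genes rose and 460 fell in intact discs. The steps were tested on simulated data.

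Members, 58 gene lists and tests were chosen with earlier results of these data known, so lists are described by counts and medians without a test. Named genes are the 25 largest rises and falls with the same sign on all 4 arrays, the members of each list with the lowest adjusted p (at most 8), all measured members of 12 lists (wing pouch, Imp genes, antimicrobial peptides, fat body, hemocyte, yolk and egg shell, heat shock, ER folding, ecdysone, iron, clock, Arc and early genes), genes called between cut and intact discs, and 5 called genes each with the largest gap between replicates or dye orders. Other names were chosen after their values were seen and are marked so. Alternatives changed the fold threshold, the samples fitted, the unit of replication, the scaling, the probes, the moderation and the dye order, or left out a replicate.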

Additional observations from a re-analysis of the deposited data

Results flagged for a closer look

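For 10 of the 229 named genes called in intact discs (4.37%), 1 of the 4 arrays lay far from the other 3 by Dixon's criterion. Chance gives this in about 1 of 20 groups of independent values. The 4 arrays are dye swaps of 2 RNA preparations and the genes were selected, so that rate may not hold here. Replicate 2 swap B was the array set apart for 5 genes, ImpE2 (-2.80, the others from -4.20 to -3.97), Hsp27 (-1.36), Cth (-0.50), CaBP1 (-0.47) and Zip99C (-0.04, the others from 1.33 to 1.38). On replicate 1 swap A it was BomT2 (1.91), mRpS33 (-1.19) and mRpS18C (-1.55, the others from -0.70 to -0.56), on replicate 1 swap B pen-2 (-1.06) and on replicate 2 swap A ND-MLRQ (-1.0).

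The change over 24 hours differed between cut and intact discs for 9 genes in the test of the difference. The log2 difference, cut minus intact, was -1.85 for His1:CG31617, -1.41 for CG9416, 1.29 for eater, 1.25 for CG4259, 1.13 for Cpr97Eb, 1.12 for CG14629, 1.01 for He, 0.99 for fat-spondin and 0.90 for CG18641.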

How the results depend on the processing

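The numbers of genes that rose (620) and fell (464) stayed within 1.5 times under every alternative other than those that changed the fold threshold or tested against it. None of the 229 named genes called reversed its sign. Named genes that were not called were not counted here, and Lsp2, Hsp70Bc and Hsp68 changed sign with the replicate left out. They were 231 and 77 at 2-fold, 1449 and 1243 with no fold threshold and 199 and 65 with limma's treat at 1.5-fold. Leaving out replicates gave 571 to 636 that rose and 396 to 551 that fell. A replicate left alone was assumed to vary like the other groups. Without replicate 1, 835 of the 1084 calls were kept, and without replicate 2, 940. Arrays of swap A alone kept 990, and those of swap B alone 854. Of 229 named genes called, 197 and 214 kept the call without replicate 1 and without replicate 2. Calls of tut (0.74, and 0.27 without replicate 1) and CG17267 (-0.72, and -0.30 without replicate 2) rested on 1 replicate. Of 36 called genes with several probes, 4 had probes on both sides of 0.

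The 9 genes of the difference between cut and intact discs were less stable. The count was 0 with treat (38 at an unadjusted p under 0.05), 0 with a replicate block (641), 0 with swap B alone (385), 2 with swap A alone, 5 with arrays centred on their median, 4 with arrays scaled to a common spread, 4 with each probe on its own and 15 with the 2 comparisons fitted alone. It ranged from 0 to 15 when single replicates were left out, 0 also without either replicate of the cut discs (503 and 605 at an unadjusted p under 0.05), and 15 without either replicate of the 24 to 72 hour comparison. The cause was not tested. Same-numbered replicates did not deviate together across genes (r = -0.12 between intact and cut discs). With a single difference between replicates per group, this cannot tell whether the numbers mark a shared day or batch. The replicate block gave 620 that rose and 466 that fell, and the block with the intact numbers exchanged, added after seeing the data, gave 622, 468 and 2 for the difference.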

Other observations

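Beyond Lsp2, Hsp70Bc and Hsp68, the replicates of intact discs disagreed in sign for few genes. Replicate means lay on opposite sides of 0 and at least 1 apart for 15 genes, and 11 of these were lower in replicate 1. None was called. They were picked after their values were seen. For amos (-0.08, -3.77, 0.68 and -0.10), Vps13D (-0.10, -3.02, 0.43 and 0.34), Corp (-0.17, -3.12, 0.36 and -0.08), CG32599 (-0.15, -2.92, -0.07 and 0.20), ohgt (-0.24, -2.35, 0.05 and 0.05) and CG1299 (0.67, -2.17, 0.75 and 0.80), the gap rested on replicate 1 swap B, the array that also set His3:CG31613 apart. For Lsp2, Hsp70Bc, Hsp68, Tet (-0.77, -0.77, 0.12 and 0.48) and Prx6b (0.72, 0.66, -0.34 and -0.37), both dye orders of a replicate had the same side of 0 or lay at it. Multi-probe genes can also hide disagreement. The 2 probes of obst-E, which counted among the obstructor genes that rose, had means of -0.58 and 2.02.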
